A study of Mus musculus with 9 samples.

Results

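The genes for translation initiation and elongation factors were followed through mouse ventricles with raised or lowered phosphoinositide 3-kinase (PI3K) activity. A probe set was included when its gene symbol in the array annotation began with Eif and a digit from 1 to 6, or with Eef and 1 or 2, or was Tpt1 or Pabpc1. This gave 68 probe sets for 51 genes, out of 12488 probe sets and 8251 genes with a symbol of their own. Of these genes, 41 encode initiation factors and their regulators, 8 encode elongation factors and their regulators, and 2 (Tpt1 and Pabpc1) encode associated proteins. Each gene was represented by its brightest probe set. After dim probe sets were left out, 63 probe sets and 50 genes remained for testing. The one gene lost was Eef1g, a structural subunit of the elongation complex eEF1, whose probe set read 2.1 to 9.9 on the 9 arrays.

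RNA came from the ventricles of 9 mice, hybridised to 1 array per mouse, with 3 mice in each of 3 groups. The caPI3K mice carried a constitutively active PI3K transgene, and per the labels their hearts were larger by 20% than in wild-type littermates. The dnPI3K mice carried a dominant negative form, and heart size decreased by 17%. The NTG mice were non-transgenic and served as the control of both groups. The labels give no strain, age, sex, treatment or transgene promoter, and they name no cells in which the transgenes were active. Values are normalized intensities in arbitrary units. A gene was called changed at a limma p below 0.05 after Benjamini-Hochberg adjustment over all 10645 probe sets tested, and changes are given on the log2 scale ± standard error (SE).

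Initiation assembles a ribosome on the start codon of an mRNA: eIF2 brings the initiator tRNA, eIF4 factors bind the cap and unwind the leader, and eIF3 bridges mRNA and ribosome. Elongation then adds amino acids, with eEF1A delivering each charged tRNA and eEF2 moving the ribosome along. PI3K signals through Akt and mTOR to this machinery, largely by phosphorylation: mTOR inactivates the 4E-binding proteins, which hold back the cap-binding protein eIF4E, and S6 kinase restrains the eEF2 kinase. In mammals, many mRNAs of elongation factors begin with a run of pyrimidines (a 5′ TOP tract), through which mTOR controls their translation. In heart growth these steps set the rate at which myocytes make protein. Arrays measure mRNA amounts and neither phosphorylation nor translation.

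The sequences around the starts of 5 factor genes that recur in the results are shown so that runs of pyrimidines can be seen beside the values, with Eif2b4 as a gene that has no long run. Eef1a1, Eef2 and Eif4b were higher in dnPI3K than in NTG at an unadjusted p below 0.05, Eif2b4 was lower, and Eef1a2 is the muscle form of eEF1A. Each line holds 60 bases of RefSeq sequence (GRCm38.p6), 5′ to 3′ on the strand of the gene, with base 31 as the annotated start. Capitals mark the longest unbroken run of C or T, of at least 7 bases, that reached into the stretch from 10 bases before to 20 bases after the start. Of runs of equal length the first was marked. A further run of 7 bases in Eif4b, past the start, is therefore in lower case.
Eef1a1 (chr9:78481695-78481754, minus strand): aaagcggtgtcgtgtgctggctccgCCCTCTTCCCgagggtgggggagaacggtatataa
Eef2 (chr10:81176601-81176660, plus strand): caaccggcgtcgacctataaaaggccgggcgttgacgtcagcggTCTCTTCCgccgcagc
Eif4b (chr15:102073743-102073802, plus strand): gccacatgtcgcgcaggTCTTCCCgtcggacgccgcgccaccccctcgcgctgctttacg
Eef1a2 (chr2:181156986-181157045, minus strand): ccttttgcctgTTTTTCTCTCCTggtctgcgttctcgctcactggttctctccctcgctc
Eif2b4 (chr5:31193110-31193169, minus strand): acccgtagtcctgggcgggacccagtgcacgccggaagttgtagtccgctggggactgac

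The runs were 10 bases in Eef1a1, 8 in Eef2, 7 in Eif4b and 12 in Eef1a2, and the longest run of Eif2b4 in that stretch was 3 bases. In Eef2 the run began 14 bases past the annotated start, at base 45 of the line. The marked runs of Eif4b and Eef1a2 began at bases 18 and 12 and ended before the annotated start. That of Eef1a1 began at base 26 and crossed it. Only the strand of the gene was read, and the stretch and the least length were set after the sequences had been seen. Start sequences were found for 42 of the 51 factor genes, with 57 starts, and 17 of these (29.8%) held such a run, as did 24.6% of all 32851 mouse starts in the table. A run of C and T is a description of these letters, and which start the heart used was not measured. Annotated starts may differ from those used in heart, for Eef1a1 and Eef2 in particular. No marked run is therefore shown here to be a 5′ TOP tract.

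The 9 arrays correlated at 0.947 to 0.966 within groups and 0.939 to 0.959 between groups, across all probe sets tested. All 7 measured markers of ventricular myocytes lay above the floor on every array. Of these, 1 was called in dnPI3K against NTG and 1 in caPI3K against dnPI3K, where 2.22% and 3.46% of all genes passed. In the same order, 2 and 2 of 6 fast skeletal muscle markers were called. The calls were 1 and 2 of 4 for smooth muscle and 0 and 1 of 4 for fibroblasts. The dnPI3K arrays stood apart in several controls. Their spike-in controls had geometric means of 1567 to 1984, against 2607 to 3519 on the other arrays, and their 18S ribosomal RNA 3′ control read 3302.6 to 8097.1, against 461.8 to 670.6. Summed markers of fast skeletal muscle (6 of 6 measured, 4 above the floor on every array) reached 3043 to 3958 in dnPI3K, 7550 to 11205 in NTG and 14303 to 21241 in caPI3K. Smooth muscle markers (4 of 4 measured, 3 above the floor on every array) summed to 3148 to 4012, 2069 to 2218 and 1324 to 1755 in the same order. Atrial markers (4 of 4 measured, 2 above the floor on every array) summed to 8684 to 11332, 2118 to 21023 and 2424 to 13434 in that order. Of these, Myl4 and Myl7, atrial myosin light chains, fell in dnPI3K against NTG (2 of 4 called), and Nppa, the atrial natriuretic peptide gene, was lower in caPI3K than in dnPI3K (1 of 4 called). Their part in the values below was not tested, and fewer cells of a type and less RNA per cell cannot be told apart in whole ventricle. Mouse numbers in the dnPI3K titles form a series of their own, so that series and genotype cannot be told apart, whereas the caPI3K and NTG mice come from 2 shared series.

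In caPI3K ventricles, no factor gene changed against NTG. None of the 50 genes passed the threshold, where 0.107% of all genes did so. At an unadjusted p below 0.05, 2 of the 50 were higher and 1 was lower, shares of 4% and 2%, set against 3.98% and 3.22% of all genes. The median change of the 50 genes was 0.053, and that of all genes was 0.000. All caPI3K arrays were above all NTG arrays for 5 of the 50 genes and below them for 2. Over all 7484 genes tested, these counts were 517 and 428. The heat map shows how little the caPI3K columns departed from NTG.

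**Figure D1:**
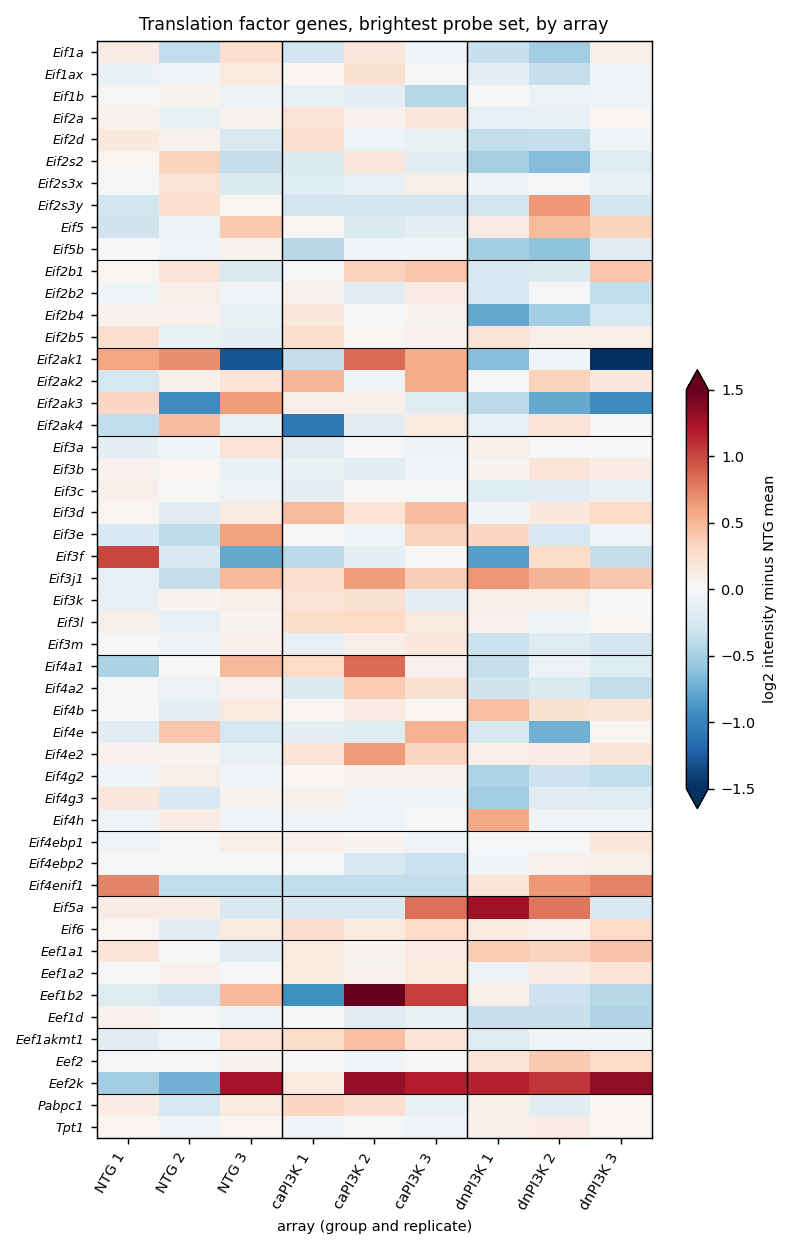
Heat map of the 50 tested factor genes (rows, grouped by role) on the 9 arrays (columns); colour is the log2 intensity minus the NTG mean of that gene, with values under the floor raised to it. Eef2k and Eif2ak1 differ by more among the NTG arrays than most genes differ between groups.

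The 3 genes with the smallest p in caPI3K against NTG were Eif3d, Eif3l and Eif1b. Eif3d, an eIF3 subunit that can itself bind the cap of some mRNAs, read 1525, 1260 and 1511 in caPI3K and 1123, 974 and 1204 in NTG. All caPI3K arrays were higher, by 0.38 ± 0.13, with an adjusted p of 0.556. The change was 0.41 among mice of the series numbered from 2800 and 0.33 in the series from 3100. The latter compares only caPI3K replicate 3 with NTG replicate 3, so it has no measured spread. Eif3l, another eIF3 subunit, read 3025, 3075 and 2758 in caPI3K against 2664, 2298 and 2568, again with no overlap (0.24 ± 0.0896, adjusted p 0.649). Eif1b, a close copy of the start codon factor eIF1, lay lower on all caPI3K arrays, at 2453, 2428 and 1969 against 2692, 2754 and 2529 (-0.23 ± 0.0995, adjusted p 0.71). Eif3j1, a loosely bound eIF3 subunit, and Eef1akmt1, which methylates eEF1A, followed with 0.42 and 0.30 and adjusted p of 0.719 and 0.728. Both overlapped with NTG, and within mouse series their differences were 0.68 and -0.11 for Eif3j1 and 0.47 and -0.02 for Eef1akmt1. The second value of each pair again compares only replicate 3 of either group.

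In dnPI3K ventricles a single factor gene changed against NTG: Eef1d, which encodes the delta subunit of the exchange factor that recharges eEF1A with GTP, fell. This was 1 of 50 genes, or 2%, where 2.22% of all genes passed. At an unadjusted p below 0.05, 5 of the 50 (10%) were higher and 6 (12%) lower, against 7.92% and 7% of all genes. The genes on the higher side were Eef1a1, Eef2, Eef2k, Eif4b and Eif3j1, and those on the lower side Eef1d, Eif4g2, Eif2b4, Eif3m, Eif5b and Eif4a2. The median of the 50 genes was 0.003 and that of all genes 0.007, with 25 genes above 0 and 25 below. Elongation and initiation genes had medians of 0.078 (7 genes) and -0.002 (41 genes). All dnPI3K arrays were above all NTG arrays for 4 of the 50 genes and below them for 7. Over all 7484 genes tested, these counts were 763 and 680.

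**Figure D2:**
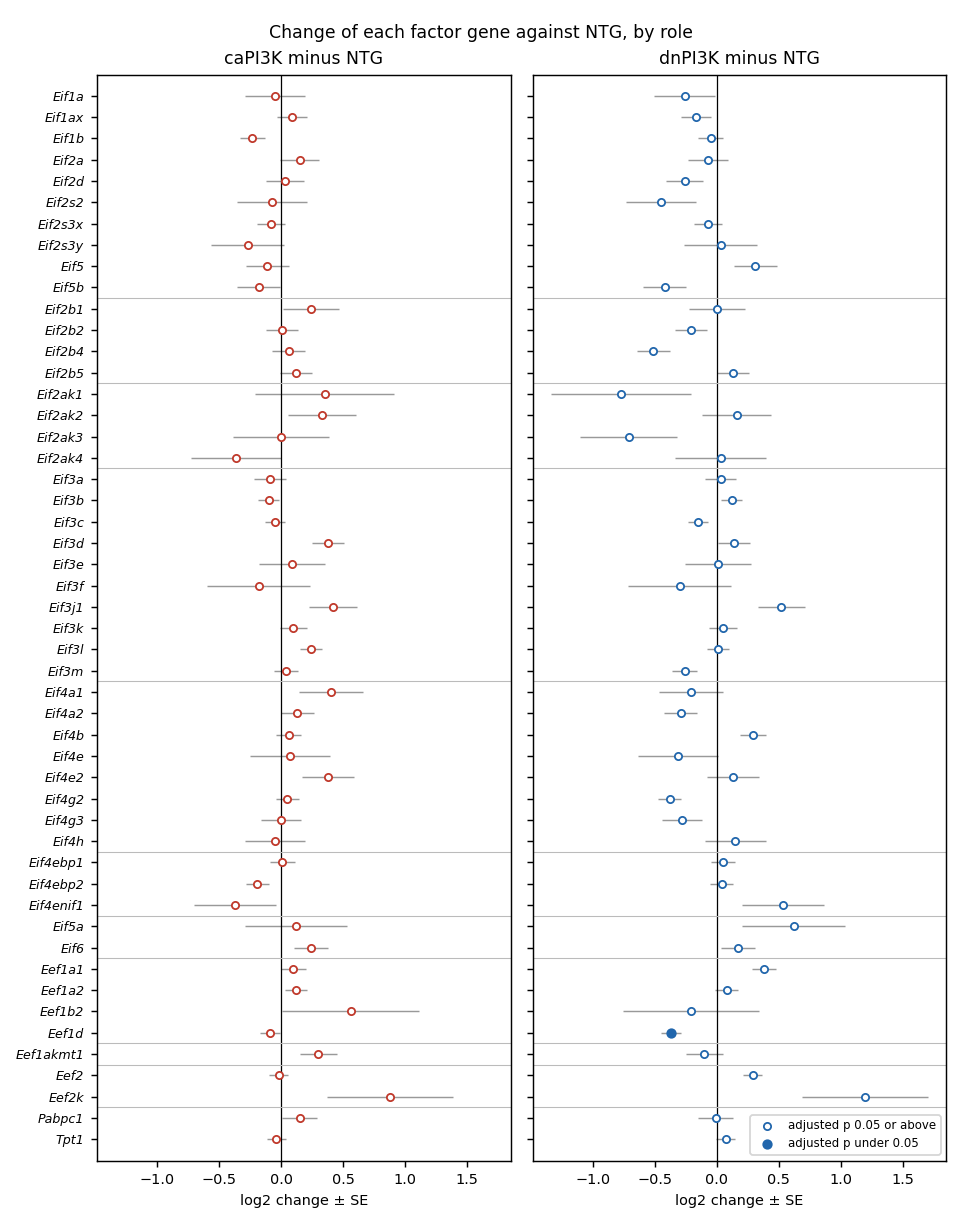
Log2 change ± SE of each of the 50 factor genes against NTG (x axis) in caPI3K (left) and dnPI3K (right), in the same order of roles as the heat map; filled points passed the adjusted threshold. Eef1d in dnPI3K is the one filled point, at -0.37.

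Among the subunits of eEF1, Eef1d read 2388, 2407 and 2212 in dnPI3K, 3169, 3038 and 2876 in NTG and 2999, 2705 and 2833 in caPI3K. All dnPI3K arrays lay below all others. The change against NTG was -0.37 ± 0.0829 (adjusted p 0.0465), or 0.772-fold. With 1 array left out, the adjusted p ran from 0.0457 to 0.155 and stayed under the threshold only without NTG replicate 3.

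Eef1a1 encodes the form of eEF1A made in most tissues. It read 20000, 19275 and 20665 in dnPI3K, 17546, 15097 and 13606 in NTG, and 16822, 15840 and 16694 in caPI3K. The dnPI3K arrays were above all others, and the difference from NTG was 0.38 ± 0.0976, with an adjusted p of 0.0816. It depended on how the arrays were scaled: with the deposited values it was 0.14 (adjusted p 0.642), and with arrays scaled to the same median 0.22. The adjusted p was 0.0391 without NTG replicate 1, at a difference of 0.48. Eef1a2, the form that takes over in adult striated muscle and neurons, read 21480, 25017 and 26221 in dnPI3K, 22363, 23968 and 22363 in NTG, and 25344, 23968 and 25344 in caPI3K. The 3 groups overlapped, and the differences from NTG were 0.08 ± 0.0917 in dnPI3K and 0.12 ± 0.0917 in caPI3K. Across the alternative settings the first ran from -0.19 to 0.16, so its direction was not fixed. Eef1b2, the beta subunit of the exchange factor, was dim and uneven, at 47 to 264 in caPI3K and 67 to 95 in dnPI3K, and 73 to 125 in NTG.

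Eef2 encodes the translocase. Its probe set read 7313, 8361 and 7793 in dnPI3K, 6222, 6322 and 6587 in NTG, and 6377, 6130 and 6363 in caPI3K. The dnPI3K arrays were the highest, and the other groups overlapped. Against NTG the difference was 0.29 ± 0.0771 (adjusted p 0.0909). Eef2k, the kinase that inactivates eEF2, was dim: it read 131, 123 and 146 in dnPI3K, 40, 35 and 138 in NTG, and 65, 145 and 132 in caPI3K. NTG replicate 3 sat with the dnPI3K arrays while its group mates lay near the floor. The difference was 1.19 ± 0.507 (adjusted p 0.306), and without that array it was 1.82 with an adjusted p of 0.0457.

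**Figure D3:**
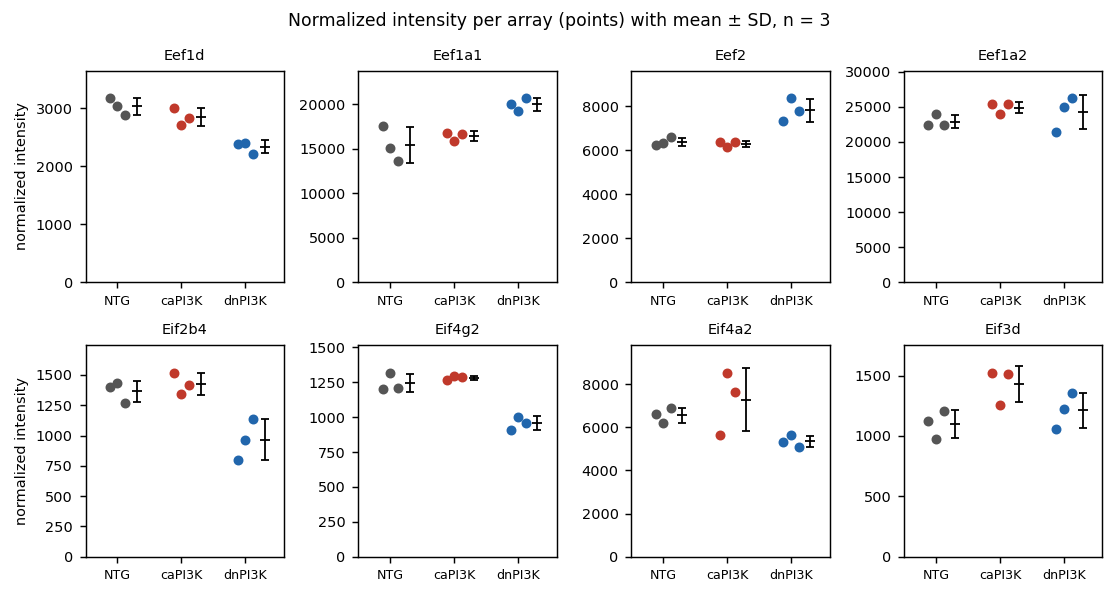
Normalized intensity (y axis, from 0) of 8 factor genes on each array (points), with the group mean ± SD (n = 3 each). In Eef1d, Eif4g2 and Eif2b4 the dnPI3K points lie below all others, and in Eef1a1 and Eef2 above all others.

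Of the eIF4 factors, which bring the ribosome to the capped end of an mRNA, none of 8 genes changed in dnPI3K against NTG, and at an unadjusted p below 0.05 there were 1 higher and 2 lower. Eif4g2 (also called DAP5), a scaffold that lacks the eIF4E-binding part of eIF4G and serves cap-independent initiation, read 905, 1003 and 960 in dnPI3K, 1204, 1320 and 1206 in NTG, and 1265, 1293 and 1287 in caPI3K. The dnPI3K arrays were the lowest (-0.38 ± 0.0933, adjusted p 0.0702). Eif4a2, a form of the RNA helicase eIF4A, read 5320, 5625 and 5105 in dnPI3K against 6613, 6180 and 6872 in NTG. Its caPI3K arrays spread from 5662 to 8535 and spanned the NTG values. The other helicase gene, Eif4a1, read 333 to 401 in dnPI3K, 305 to 594 in NTG and 444 to 760 in caPI3K, with overlap against NTG in both groups. Eif4b, which stimulates the helicase, lay higher on all dnPI3K arrays (2469, 2120 and 2054 against 1796, 1649 and 1999; 0.29 ± 0.104, adjusted p 0.222). Its second tested probe set gave 0.20 ± 0.218.

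The cap-binding protein gene Eif4e gave 93 to 156 in dnPI3K, 128 to 205 in NTG and 135 to 220 in caPI3K, with overlap throughout. Eif4e2, a cap-binding relative that represses translation, was higher than NTG on all caPI3K and all dnPI3K arrays, by 0.38 ± 0.208 and 0.13 ± 0.208, with adjusted p of 0.763 and 0.833. Its second tested probe set overlapped with NTG in both groups, at 0.16 ± 0.56 and 0.86 ± 0.56. Eif4g3, an eIF4G scaffold, differed from NTG by -0.00 ± 0.162 in caPI3K and -0.28 ± 0.162 in dnPI3K. Eif4h, a helper of the helicase, lay on or near the floor on most arrays.

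The 4E-binding proteins are the mTOR-controlled brake on eIF4E. Eif4ebp1 was even across the study, at 1173 to 1286 in NTG, 1167 to 1266 in caPI3K and 1194 to 1371 in dnPI3K, and its differences from NTG were 0.01 ± 0.0984 and 0.05 ± 0.0984. The brightest probe set of Eif4ebp2 read 2656, 2659 and 2684 in NTG and 2581, 2792 and 2850 in dnPI3K, a difference of 0.04 ± 0.0933. In caPI3K it read 2623, 2265 and 2136, below every NTG array (-0.19 ± 0.0933, adjusted p 0.728). Eif4enif1, which carries eIF4E into the nucleus and to P-bodies, was under the floor on 5 of the 6 caPI3K and NTG arrays and read 53, 72 and 77 in dnPI3K. Its difference from NTG there, 0.53 ± 0.33, depends on where the floor is set.

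In the eIF2 cycle, eIF2B recharges eIF2 with GTP and the 4 eIF2 kinases slow that step under stress. Eif2b4, the delta subunit of eIF2B, read 801, 961 and 1138 in dnPI3K, 1397, 1432 and 1267 in NTG, and 1520, 1341 and 1419 in caPI3K. All dnPI3K arrays were below all others (-0.51 ± 0.13 against NTG, adjusted p 0.0812). Its probe set carries the suffix by which the array maker marks sets that can match more than one transcript. The alpha, beta and epsilon subunit genes Eif2b1, Eif2b2 and Eif2b5 overlapped between dnPI3K and NTG, with differences of -0.00, -0.21 and 0.13. The kinases Eif2ak1 (activated by haem shortage), Eif2ak2 (by double-stranded RNA), Eif2ak3 (by misfolded protein in the endoplasmic reticulum) and Eif2ak4 (by uncharged tRNA) overlapped with NTG in both groups. Eif2ak1 spread from 101 to 402 among NTG arrays alone.

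Among the factors that carry the initiator tRNA and choose the start codon, 10 genes were tested and none changed in either comparison with NTG (1 lower at an unadjusted p below 0.05 in each). In dnPI3K, 8 of the 10 were below 0 (median -0.122), and in caPI3K 7 of the 10 were (median -0.074). Of all 7484 genes tested, 3668 and 3740 were below 0 in the same order. Eif5b, which joins the large subunit, was lower on all dnPI3K arrays (317, 297 and 399 against 449, 432 and 468; -0.42 ± 0.175, adjusted p 0.287), and its second probe set gave -0.64 ± 0.302. Eif5, which triggers GTP hydrolysis by eIF2, read 991, 1258 and 1146 in dnPI3K against 737, 853 and 1189 (0.31 ± 0.172, adjusted p 0.449). Eif2s3x, the X-linked gene for the gamma subunit of eIF2, ran from 3767 to 5011 over all arrays with overlap of all groups. Eif2a, an alternative carrier of initiator tRNA, was higher on all caPI3K arrays than in NTG (0.15 ± 0.158, adjusted p 0.883). The Y-linked copy of Eif2s3x, Eif2s3y, was read by a probe set of the gene-family type and was below the floor on 6 of 9 arrays. The values were 9.0, 7.9 and 23.9 in caPI3K, 10.4, 66.8 and 27.9 in dnPI3K, and 7.3, 50.4 and 43.6 in NTG, so mice of 1 group differed more than the groups did. Xist, which marks an inactive X chromosome, was well above the floor on every array (675 to 1364).

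The eIF3 complex was represented by 10 genes, of which none changed against NTG in either group, with medians of 0.066 in caPI3K and 0.022 in dnPI3K. At an unadjusted p below 0.05, 2 were higher in caPI3K, and 1 was higher and 1 lower in dnPI3K. Eif3a, the largest scaffold subunit, read 617 to 679 in caPI3K, 688 to 739 in dnPI3K and 620 to 800 in NTG. Eif3m was lower on all dnPI3K arrays (1631, 1793 and 1697 against 2050, 1941 and 2156; -0.26 ± 0.0985, adjusted p 0.237). Eif3j1 went the other way, at 1674, 1509 and 1401 against 972, 828 and 1482 (0.52 ± 0.192, adjusted p 0.226), and overlapped through NTG replicate 3. Eif3c, a core subunit, was lower on all dnPI3K arrays (-0.15 ± 0.0812, adjusted p 0.44). Eif3b, Eif3e, Eif3f and Eif3k overlapped with NTG in both groups, and Eif3f spread from 184 to 628 among NTG arrays alone. Eif6, which keeps the large ribosomal subunit apart from the small one, was higher than NTG on all caPI3K arrays (604, 558 and 618 against 512, 447 and 555; 0.24 ± 0.136, adjusted p 0.783). Eif5a, a factor that helps ribosomes through difficult peptide bonds, lay between 26 and 100 on all arrays and overlapped between all groups.

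Neither associated gene passed in any comparison, nor did either reach an unadjusted p below 0.05. Tpt1, which encodes a growth-related protein with a 5′ TOP mRNA, read 28419, 28858 and 27971 in caPI3K, 30860, 31625 and 29999 in dnPI3K, and 29999, 27971 and 29999 in NTG. Its differences from NTG were -0.04 ± 0.0758 and 0.07 ± 0.0758, and all caPI3K arrays lay below all dnPI3K arrays (-0.12 ± 0.0758, adjusted p 0.503). The directions of the dnPI3K differences of Tpt1 turned under other settings, which ran from -0.33 to 0.09 against NTG and from -0.14 to 0.29 for caPI3K against dnPI3K. Pabpc1, the poly(A)-binding protein that loops an mRNA end to end, read 2962 to 3948 in caPI3K, 2855 to 3380 in dnPI3K and 2662 to 3540 in NTG, and all groups overlapped.

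The direct comparison of caPI3K with dnPI3K ventricles, the pair at either end of the range of heart size, gave 2 calls among the 50 factor genes. Eif4g2 and Eif2b4 were higher in caPI3K, by 0.42 ± 0.0933 (adjusted p 0.0349) and 0.57 ± 0.13 (adjusted p 0.041). This is 4% of the genes, where 3.46% of all genes passed. At an unadjusted p below 0.05, 8 (16%) were higher and 6 (12%) lower in caPI3K, against 8.42% and 8.7% of all genes. The median of the 50 genes was 0.146 and that of all genes 0.000. All caPI3K arrays were above all dnPI3K arrays for 13 of the 50 genes and below them for 9. Over all 7484 genes tested, these counts were 876 and 956. This comparison uses the same dnPI3K arrays as the one before, so it is no separate evidence about them.

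With 1 array left out, the adjusted p of Eif4g2 ran from 0.0319 to 0.131 and stayed under the threshold only without NTG replicate 2 or NTG replicate 3. That of Eif2b4 ran from 0.026 to 0.131 and stayed under it only without dnPI3K replicate 3 or NTG replicate 3. The change itself lay between 0.39 and 0.46 for Eif4g2 and between 0.45 and 0.70 for Eif2b4. With arrays scaled to the same median neither gene passed.

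Eef2 was lower in caPI3K than in dnPI3K (-0.31 ± 0.0771, adjusted p 0.0575), with every caPI3K array below every dnPI3K array. It passed without NTG replicate 3, at an adjusted p of 0.0449. Eef1d was higher in caPI3K (0.28 ± 0.0829, adjusted p 0.102), as was Eif4a2 (0.43 ± 0.132, adjusted p 0.123), again without overlap. Eif4a2 passed without caPI3K replicate 1, its lowest caPI3K array, at 0.60 with an adjusted p of 0.0146. Eef1a1 was at -0.28 ± 0.0976 (adjusted p 0.167), but across the alternative settings this ran from -0.31 to 0.01. Among the eIF4 factors, 6 of 8 genes were above 0 (median 0.331) and Eif4g2 was the one that passed. The same count for eIF3 was 7 of 10 with a median of 0.091, and none passed. Of all 50 factor genes 31 were above 0, as were 3744 of all 7484 genes tested. Of all genes, 3.46% passed.

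Several factor genes were read by more than 1 probe set, and these did not always move together. Of 12 genes with at least 2 tested probe sets, the signs agreed for 7 in caPI3K against NTG, for 7 in dnPI3K against NTG and for 5 in caPI3K against dnPI3K. Counting every probe set in place of the brightest, 1 of the 63 rose and 3 fell in dnPI3K against NTG, a share of 6.35%, where 2.18% of all 10645 did so. In caPI3K against dnPI3K, 3 of 63 (4.76%) passed, all higher, where 3.24% of all did, and in caPI3K against NTG none did, where 0.0845% of all did. Probe sets of 1 gene share their target, so these are not separate genes.

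In the comparisons with dnPI3K, the probe sets of Eif4ebp2 lay far apart. Its second-brightest set read 194, 284 and 126 in dnPI3K, 662, 667 and 557 in NTG, and 815, 356 and 495 in caPI3K, and all dnPI3K values were below all others. It fell by 1.72 on the log2 scale against NTG (SE 0.33, adjusted p 0.0275) and was higher in caPI3K than in dnPI3K by 1.46 ± 0.33 (adjusted p 0.0404). The brightest set gave 0.04 and -0.23 for the same comparisons, and the dimmest gave 0.44 and -0.59 at intensities of 18 to 86. With 1 array left out, the fall of the second set kept an adjusted p under the threshold in 5 of 9 cases, in a range of 0.021 to 0.0933. It was lost without dnPI3K replicate 1 or 3 and without NTG replicate 1 or 2. The higher value in caPI3K kept it in 3 of 9, in a range of 0.0347 to 0.126, namely without caPI3K replicate 2, dnPI3K replicate 2 or NTG replicate 3. Which transcripts each set reads was not tested.

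Eif1ax, an X-linked gene for the scanning factor eIF1A, had a second, dimmer probe set that rose. It read 818, 902 and 1011 in dnPI3K, 571, 639 and 642 in NTG, and 675, 671 and 670 in caPI3K. All dnPI3K arrays were above all others (0.56 ± 0.119, adjusted p 0.042), but the brighter set was at -0.17 ± 0.121. Leaving out any 1 array took the adjusted p of the second set to between 0.0552 and 0.146.

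Eif2s2, the beta subunit of eIF2, had a second, dimmer set that fell, from 154, 108 and 186 in NTG to 70, 33 and 43 in dnPI3K. Its caPI3K arrays read 85, 116 and 109, above all dnPI3K arrays and overlapping with NTG. It fell by 1.62 on the log2 scale (SE 0.342, adjusted p 0.0401), with 1 dnPI3K array under the floor. With a floor at the 40th percentile the change was -0.39. Only without dnPI3K replicate 1 did it stay under the threshold when 1 array was left out (adjusted p 0.0334). The brighter set was at -0.45 ± 0.282 (adjusted p 0.522). The dimmer set of Eif1a, another gene for eIF1A, was lower on all caPI3K arrays than on all others, at 72, 153 and 118 against 263, 251 and 165 in NTG (-1.02 ± 0.338, adjusted p 0.532), while its brighter set was at -0.05.

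**Figure D4:**
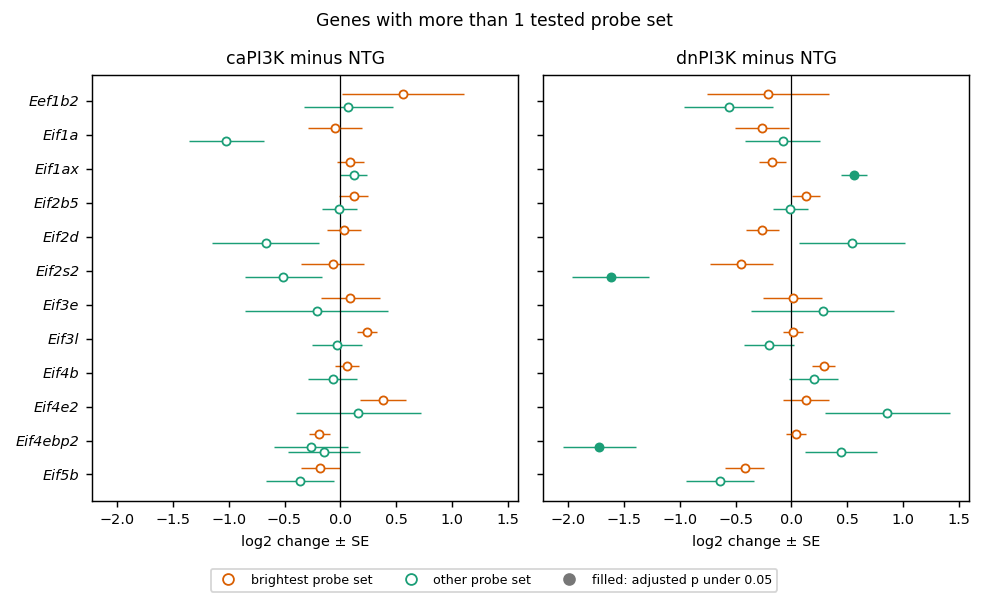
Log2 change ± SE against NTG of every tested probe set in the 12 genes with more than 1, in caPI3K (left) and dnPI3K (right); orange is the brightest set, green any other, and filled points passed the adjusted threshold. The 3 filled points are second sets of Eif1ax, Eif2s2 and Eif4ebp2 in dnPI3K, and the brightest sets of Eif1ax and Eif4ebp2 lie on the other side of 0.

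**Figure D5:**
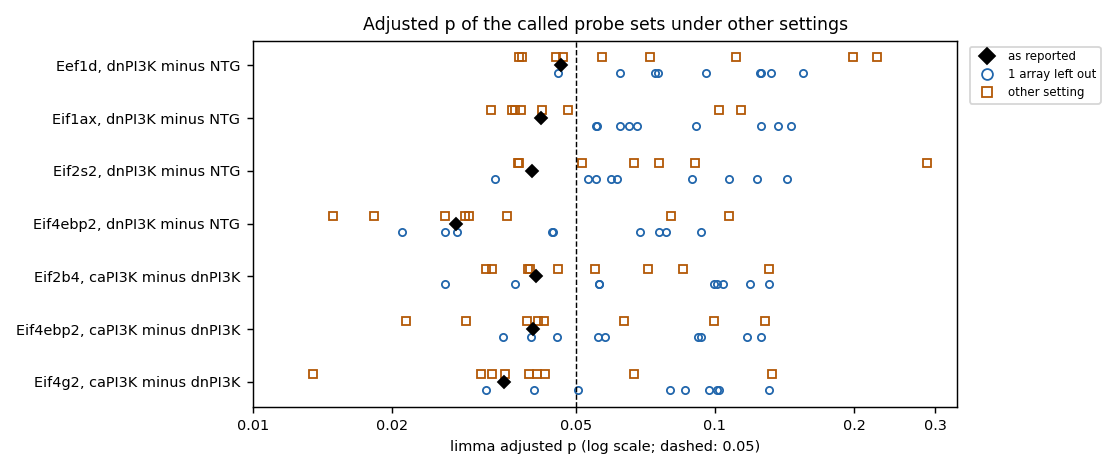
Adjusted p (x axis, log scale) of the 7 factor results that passed, as reported (black), with 1 array left out (blue circles) and under the other settings (brown squares); the dashed line is 0.05. Each row holds points on both sides of the line, and every reported value lies between 0.0275 and 0.0465.

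Genes around the factors were examined as lists of pathway members. Their counts are to be read against the shares of all genes that passed: 0.107% in caPI3K against NTG, 2.22% in dnPI3K against NTG and 3.46% in caPI3K against dnPI3K. The shares of all genes at an unadjusted p below 0.05 were 3.98% higher and 3.22% lower, 7.92% and 7%, and 8.42% and 8.7%, in the same order. Of 15 tested genes of mTOR and S6 kinase signalling, Akt2, an insulin-responsive kinase below PI3K, rose in dnPI3K against NTG (0.57 ± 0.117, adjusted p 0.0352), and none passed in caPI3K. The counts at an unadjusted p below 0.05 were 4 higher and 2 lower in dnPI3K and 1 higher in caPI3K. In caPI3K against dnPI3K, Akt1 and Akt2 were lower (-0.90 ± 0.171 and -0.56 ± 0.117, adjusted p 0.0175 and 0.0286). Akt1 read 1397, 1532 and 1436 in dnPI3K, 896, 750 and 702 in caPI3K and 812, 869 and 1297 in NTG. The 15 genes had medians of -0.067, -0.135 and -0.037 against NTG in caPI3K, against NTG in dnPI3K and between the transgenic groups. Mtor itself was at 0.33 ± 0.138 in caPI3K and 0.36 ± 0.138 in dnPI3K against NTG, with adjusted p of 0.691 and 0.246.

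Of 10 genes of the stress response that follows eIF2 phosphorylation, Cebpb, a transcription factor of stress and inflammation, rose in dnPI3K against NTG (0.79 ± 0.148, adjusted p 0.0243). It was lower in caPI3K than in dnPI3K (-0.97 ± 0.148, adjusted p 0.00593). Atf4, whose translation rises when eIF2 is phosphorylated, and its target Ddit3 did not pass in dnPI3K against NTG, at 0.34 ± 0.114 (adjusted p 0.187) and 0.82 ± 0.247 (adjusted p 0.136). All dnPI3K arrays of both genes were above the NTG arrays, as for 4 of the 10 genes and 763 of all 7484 genes tested. Of the 10 genes, 6 were above 0 and 4 below (median 0.194), the latter being Trib3 (-0.43), Ppp1r15b (-0.33), Asns (-0.12) and Vldlr (-0.05). In dnPI3K against NTG the unadjusted p was below 0.05 for 4 higher and 0 lower genes. In caPI3K against NTG none of the 10 passed, and 8 were below 0 (median -0.110). At an unadjusted p below 0.05, Ddit3 was higher there (0.59 ± 0.247, adjusted p 0.691) and Ppp1r15a lower (-0.34 ± 0.146, adjusted p 0.705). All caPI3K arrays of Ddit3 were above the NTG arrays, as for 517 of all 7484 genes tested. Between caPI3K and dnPI3K, Ddit3 differed by -0.23 ± 0.247 (adjusted p 0.726). Beside these values, the eIF2 kinase genes showed the overlap given above.

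Among 9 genes of poly(A)-tail binding and the cap, Ddx6, an RNA helicase of P-bodies, was higher in caPI3K than in dnPI3K (1.28 ± 0.275, adjusted p 0.0317). Against NTG it was at -1.05 ± 0.275 in dnPI3K (adjusted p 0.0888). None of 7 genes of termination and recycling (Eif2d among them) passed in any comparison, and at an unadjusted p below 0.05 there were 1 higher in caPI3K against NTG and 2 higher in caPI3K against dnPI3K. Gspt1, the release factor eRF3a, was higher on all caPI3K arrays than in NTG (2127, 2021 and 1911 against 1587, 1364 and 1259; 0.53 ± 0.131, adjusted p 0.343). None of 21 genes of cytosolic aminoacyl-tRNA synthesis passed, with medians of 0.078, 0.071 and 0.057 in the same order as above. At an unadjusted p below 0.05, 1 was higher in caPI3K and 3 in dnPI3K against NTG, and between the transgenic groups 1 was higher and 2 were lower in caPI3K. The one closest to the threshold was Cars, the cysteinyl-tRNA synthetase, at 1.64 ± 0.421 in dnPI3K against NTG (adjusted p 0.0821). None of 5 mitochondrial translation factor genes passed, and 1 (Mtif2) was lower in dnPI3K than in NTG at an unadjusted p below 0.05.

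The factor genes known in mammals for a 5′ TOP tract formed a list of 12, with 11 tested. One of the 11, Eef1d, fell in dnPI3K against NTG, where 2.22% of all genes passed. The medians of the 11 were 0.061, 0.035 and 0.043 in the comparisons in the same order, and Eef1a1, Eef2 and Eif4b lay above NTG in dnPI3K while Eef1d lay below. The runs of C and T printed above for Eef1a1, Eef2, Eif4b and Eef1a2 stood in genes whose differences between dnPI3K and NTG were 0.38, 0.29, 0.29 and 0.08. Those 4 genes were picked for display. Runs of at least 7 bases stood at a start of 15 factor genes. Beyond the displayed genes, those above 0 were Eif4enif1 (0.53), Eif2b5 (0.13), Eif3k (0.05), Eif2ak4 and Eif2s3y (0.03 each) and Eif3l (0.01). Those below 0 were Eif4e (-0.31), Eif3f (-0.30), Eif3m (-0.26), Eif2b2 (-0.21) and Eif2s3x (-0.07). Genes without such a run ranged from -0.77 (Eif2ak1) to 1.19 (Eef2k). A link between runs and changes was not tested.

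The genes whose log2 pattern over the 9 arrays was most like that of Eef1a2 were 1810058I24Rik, Zscan21, Atxn7l3, Bub3 and Wdr6, with Pearson correlations of 0.92, 0.91, 0.91, 0.89 and 0.89. These are descriptions over 9 arrays that share 3 groups. No member of the factor families was among the 5.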

How the data were processed

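The deposited intensity of 12488 probe sets on 9 one-colour arrays was the starting point. The sources used here do not say how the authors computed it. Every array had the same mean over probe sets (500.4) once the extreme 2% at either end were set aside. Groups were read from the titles, and replicates are numbered by deposition. The labels state 1 mouse per array and no more, so the limma p-values set group differences against the spread between these samples.

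After quantile normalization, values under the 20th percentile (35.34) were set to it and log2 was taken. Probe sets above that floor on at least 3 arrays were tested, without 66 array controls. Limma 3.58.1 (R 4.3.3; linear model with empirical Bayes moderation and an intensity trend) was fitted to all 10645 probe sets and 9 arrays with group as the only term and 6 residual degrees of freedom, two-sided. Means and SDs are of normalized intensities before the floor. The fit was tested on simulated data.

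All 68 symbols were the same in RefSeq. One probe set with several symbols was left out, and Eif2s1 and Eif4g1 were not analysed here. The members and gene lists were chosen with earlier results of these data known. Named genes were those that passed, the 5 with the smallest p per comparison, central factors, genes with opposed probe sets, up to 4 per pathway list and the 5 most like Eef1a2. Other genes were named to cover each role. The roles of Eef1akmt1 and the eEF2 genes were set apart after the files had been read. The number of arrays limits the precision.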

Additional observations from a re-analysis of the deposited data

How the results depend on the processing

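The alternatives were these: deposited values, median scaling, floors at the 5th and 40th percentiles, testing dim probe sets too, testing only the brighter ones (above the median), no intensity trend, averaging a gene's probe sets, fitting 2 groups alone, and leaving out each array, each changed by itself. A block for the mouse number series was fitted to the caPI3K and NTG arrays alone, which changes 2 choices together. No called factor probe set changed sign under any of them, but each of the 7 calls was lost under several. In caPI3K against NTG no factor gene passed under any alternative.

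Factor genes called in dnPI3K against NTG numbered 1, and 0 with the deposited values, median scaling, the lower floor, no trend or the 2 groups alone. The count was 2 with the higher floor, no filter or only probe sets above the median, and 0 to 3 with 1 array left out (3 without NTG replicate 3). In caPI3K against dnPI3K the count was 2, and it was 0 with median scaling or no trend, 1 with the 2 groups alone, 3 with the higher floor or only probe sets above the median, and 0 to 3 with 1 array left out.

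Over all probe sets, calls in caPI3K against NTG fell from 9 to 1 with no filter, no trend or the 2 groups alone, and stayed at 1 when the block was added to those 2 groups. They ran from 0 to 20 with 1 array left out. At an unadjusted p below 0.05 there were 734. In dnPI3K against NTG, 232 became 138 with no filter, 94 with no trend, 103 with the 2 groups alone and 82 to 235 with 1 array left out. In caPI3K against dnPI3K, 345 became 219 with no filter, 151 with no trend and 134 to 435 with 1 array left out. Median scaling turned 108 higher and 124 lower calls in dnPI3K against NTG into 135 and 93.

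The median of the factor genes in dnPI3K against NTG, 0.003, was -0.051 with the deposited values. In caPI3K against NTG it was 0.130 with median scaling (0.053 otherwise). In caPI3K against dnPI3K, 0.146 became 0.058 with the mean of all probe sets of a gene and ran from 0.097 to 0.170 with 1 array left out. The causes were not tested. No paired analysis was possible because replicate numbers come from the order of deposition and link no mice across groups. The block matches caPI3K and NTG mice by number series and pairs no mice.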

Other observations

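A probe set annotated to Eif4a3 together with a pair of copies (Eif4a3l1 and Gm5576) could not be given to 1 gene. Eif4a3 encodes an eIF4A relative of the exon junction complex. The set read 1593, 1555 and 1278 in caPI3K, 1540, 1228 and 1797 in dnPI3K, and 1196, 1343 and 1354 in NTG, with overlap of all groups and differences from NTG of 0.18 ± 0.145 and 0.21 ± 0.145 (adjusted p 0.841 and 0.554).

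The Y-linked genes Kdm5d and Uty read at most 31.5 and 48.1 on any array, under or near the floor, as Eif2s3y did on 6 of 9. The highest value of Uty, Kdm5d and Eif2s3y was on the same array, dnPI3K replicate 2. Xist fell in dnPI3K against NTG (-0.69 ± 0.142, adjusted p 0.0377), with 865, 675 and 710 against 1197, 1056 and 1364. The labels give no sex, and the part of sex in the factor values was not tested.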
